A study of Mus musculus with 9 samples.

Results

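The 7 genes described here mark the B cell lineage: Ms4a1, Cd79a, Cd79b, Pax5, Blk, Fcrla and Cd22. They were found by symbol among the 21983 genes of the count table, all 7 were in it, and all 7 were among the 14739 genes that passed the filter on low counts and were tested. The genes were measured by RNA sequencing of whole lung of BALB/c mice, which are inbred. The first group, BSYQF, had chronic asthma and received the Bu-Shen-Yi-Qi formula, a mixture of Chinese herbs, by mouth for 6 weeks at 20 g of raw herbs per kg, starting on day 14. The second group, asthma, consisted of asthmatic mice that were given saline by mouth from the same day, and the third group, control, of normal mice that were given saline. Each group had 3 libraries. The sources used here do not give the allergen of the model or the age and sex of the mice. Nor do they say whether each replicate library is a separate animal, so that the p-values cover only the spread among the 9 libraries, part of which may be technical.

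B cells recognise antigen through a membrane antibody that signals through the paired chains Cd79a and Cd79b. Kinases such as Blk pass the signal on, and inhibitory co-receptors such as Cd22 damp it. The factor Pax5 sets and keeps B cell identity, and B cells that become antibody-secreting plasma cells switch off Pax5 and Ms4a1. In the lung, B cells are scattered in the tissue and can gather in lymphoid follicles beside the bronchi during chronic inflammation, and in allergic asthma the antibodies of the lineage include IgE.

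The libraries held 16286385 to 22819199 counts in genes. Levels are given as CPM (count per 1000000, with each library's total scaled by TMM factors of 0.914 to 1.07), and 3 counts correspond to 0.134 to 0.202 CPM. Lung markers were abundant in every library: Sftpc, the surfactant protein of type II cells, lay at 13505 to 25346 CPM and Scgb1a1, the secretory protein of club cells, at 21126 to 47410 CPM. In asthma replicate 2 mitochondrial genes held 10.3% of counts, against 2.19% to 6.53% in the other libraries, and its 10 most abundant genes held 17.1%.

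All 7 genes had their highest mean in BSYQF lungs and their lowest in control lungs, and for none of them did a difference between groups pass edgeR's test, the main test used. Libraries of 1 group differed from each other by 1.42 to 3.22 times in these genes, and the lowest library of each group was the same for every gene. The largest fold difference was that of Cd22, at 78.8 ± 32.5 CPM in BSYQF lungs, 43.9 ± 11.8 CPM in asthma lungs and 32.4 ± 14.6 CPM in control lungs (SD, n = 3 each). In whole tissue, fewer B cells and less RNA per B cell cannot be told apart.

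Cd79a and Cd79b, the signalling chains of the B cell receptor, were the most abundant of the 7 per length. In GRCm38 (mm10) coordinates Cd79a lies at chr7:24897381-24902197 on the plus strand and Cd79b at chr11:106311341-106314762 on the minus strand, and both are annotated as protein coding, as are the other 5. Cd79a stood at 176, 99.8 and 169 CPM in BSYQF replicates 1, 2 and 3, at 97.9, 130 and 74.1 CPM in asthma lungs and at 35.4, 105.3 and 64.1 CPM in control lungs. The BSYQF libraries overlapped those of both other groups through BSYQF replicate 2, and control replicate 1 was the lowest of all. Cd79b stood at 128, 90.2 and 120 CPM in BSYQF lungs, 89.0, 109 and 65.3 CPM in asthma lungs and 37.0, 93.5 and 63.2 CPM in control lungs. Its order of libraries within each group was that of Cd79a. The ratio of Cd79a to Cd79b counts was 1.11 to 1.40 in BSYQF lungs, 1.10 to 1.19 in asthma lungs and 0.959 to 1.13 in control lungs.

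Ms4a1 encodes CD20, a surface protein of mature B cells and the target of B cell depleting antibodies. The gene lies at chr19:11249675-11266241 on the minus strand. It stood at 93.1, 53.8 and 96.2 CPM in BSYQF lungs, 40.0, 56.1 and 34.1 CPM in asthma lungs and 28.2, 53.4 and 30.4 CPM in control lungs. Its lowest BSYQF library lay just above the highest control library, so that these groups did not overlap, while asthma replicate 2 lay above BSYQF replicate 2. Relative to Fcrla, another B cell gene, Ms4a1 counts were 3.24, 2.81 and 2.84 times as many in BSYQF lungs, 1.95, 2.04 and 2.26 times in asthma lungs and 2.96, 2.07 and 1.59 times in control lungs. This ratio separated the BSYQF from the asthma libraries but not from the control libraries, where control replicate 1 lay within the BSYQF range. Of the lineage genes, Ms4a1 had the largest log2 fold change in BSYQF against asthma lungs (0.90), and Fcrla had a small one (0.37). The ratio restates that difference and is no separate result, and the share of other gene pairs that separate these groups was not counted.

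Cd22, a sialic acid-binding co-receptor that restrains B cell receptor signals, lies at chr7:30865402-30880342 on the minus strand. It stood at 110, 45.2 and 81.0 CPM in BSYQF lungs, 43.6, 55.8 and 32.1 CPM in asthma lungs and 20.5, 48.8 and 28.0 CPM in control lungs. BSYQF replicate 1 was the highest of the 9 libraries, and BSYQF replicate 2 lay below the highest library of each other group. An exon of Gm29439 on the opposite strand covers 479 bases of its exons, and no source used here gives the strand setting of the counting, so reads of both genes cannot be told apart there.

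Blk, a Src family kinase of B cells, lies at chr14:63372836-63417037 on the minus strand. It stood at 28.2, 17.2 and 34.3 CPM in BSYQF lungs, 16.3, 26.1 and 15.2 CPM in asthma lungs and 8.54, 21.5 and 14.8 CPM in control lungs. Blk had the fewest counts of the 7 genes, from 158 in control replicate 1, while Cd79a reached 3242 counts in BSYQF replicate 3. Each of the 7 genes thus lay far above the level of 3 counts in every library.

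Pax5, the transcription factor that commits cells to the B lineage, lies at chr4:44524757-44710487 on the minus strand. It stood at 87.4, 51.1 and 101 CPM in BSYQF lungs, 50.1, 101.5 and 40.7 CPM in asthma lungs and 21.99, 70.8 and 46.1 CPM in control lungs. Pax5 was the only one of the 7 whose highest library was asthma replicate 2, the library with the high mitochondrial share. Exons of Gm12462 and 5730488B01Rik on the opposite strand cover 761 bases of the exons of Pax5. Fcrla, an Fc receptor-like protein kept inside B cells, lies at chr1:170917576-170927583 on the minus strand. It stood at 28.7, 19.1 and 33.8 CPM in BSYQF lungs, 20.5, 27.6 and 15.1 CPM in asthma lungs and 9.51, 25.8 and 19.2 CPM in control lungs. Of the 7 genes Fcrla had the smallest log2 difference between BSYQF and control lungs.

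**Figure D1:**
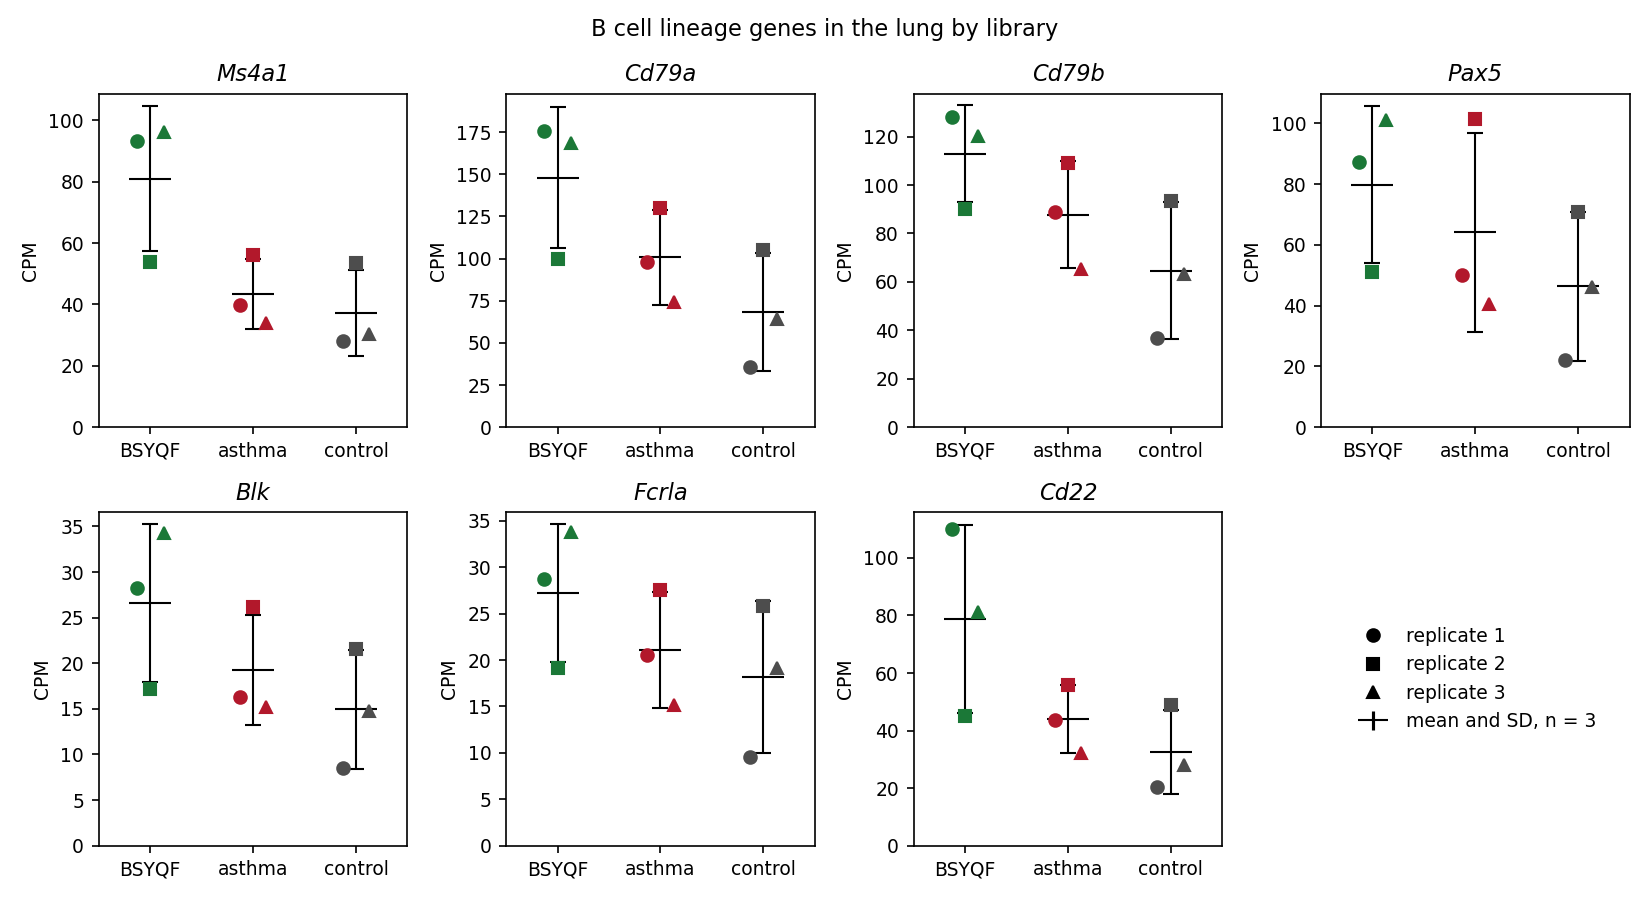
Level in CPM (vertical axes, from 0) of each of the 7 B cell lineage genes in BSYQF, asthma and control lungs. Symbols mark replicates, and bars the mean and SD of 3 libraries. For every gene, BSYQF replicate 2 is the lowest BSYQF library, asthma replicate 2 the highest asthma library and control replicate 1 the lowest of all 9.

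Divided by exon length, so that genes can be compared, the mean level over the 9 libraries was 72.6 ± 31.9 CPM per kilobase for Cd79a and 61.8 ± 20.5 for Cd79b. The other 5 genes followed at 12.7 ± 4.31 CPM per kilobase for Fcrla, 10.3 ± 5.57 for Cd22, 8.72 ± 4.10 for Ms4a1, 7.51 ± 2.97 for Blk and 7.16 ± 3.18 for Pax5 (SD over 9 libraries of 3 groups). Neighbours in this order lay within their spread of each other, apart from the step between Cd79b, at no less than 25.8 CPM per kilobase, and Fcrla, at no more than 19.4. The 2 chains of the receptor thus stood above the co-receptors, the kinase and the factor in this tissue.

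The 7 genes varied together from library to library. Over the 9 libraries the 21 pairs of genes had Pearson correlations of log2 CPM from 0.848 (Ms4a1 and Fcrla) to 0.992 (Cd79a and Cd79b). After each group's mean was taken away they were still 0.865 to 0.987. The values are a description over 9 libraries that share their depth, their scaling and their cell make-up. Summed over the 7 genes, the level was 652, 376 and 636 CPM in BSYQF lungs, 357, 507 and 277 CPM in asthma lungs and 161, 419 and 266 CPM in control lungs. Control replicate 1 was the lowest of the 9 libraries for all 7 genes, and BSYQF replicate 2 lay below control replicate 2 in this sum.

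The genes whose log2 CPM followed the mean of the 7 most closely over the 9 libraries, among tested genes of at least 1 CPM, included several of B cells and of white blood cells in general. Shank1, a scaffold protein known from synapses, had a Pearson correlation of 0.981 with that mean. Rac2 and Csk, a GTPase and a kinase of blood cells, both stood at 0.9754, Prkcb, a protein kinase C of the B cell receptor pathway, at 0.974, and H2-Ob, which tunes antigen loading in B cells, at 0.974. Kmo, an enzyme of tryptophan breakdown, stood at 0.973, Tnfrsf13c, the receptor for the survival factor BAFF, at 0.969, Lsp1, an actin-binding protein of white blood cells, at 0.968 and Rhoh, a GTPase of lymphocytes, at 0.960. Shank1 was a gene of low level, at 0.648 to 4.58 CPM.

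Stretches before the start of Fcrla, Cd79a and Pax5 are shown because these genes varied together. They come from the RefSeq windows of 250 bases upstream of the gene start on GRCm38.p6, which were in hand for 4 of the 7 genes (Cd79a, Pax5, Fcrla and Cd22) and not for Ms4a1, Cd79b and Blk, and each was kept only up to the first exon base of the GENCODE annotation. The Cd22 window lay within an annotated exon and is not shown. Each is printed 5′ to 3′ on the gene's strand. Capitals mark CAGGTG, an E-box of the kind bound by E proteins such as Tcf3, a factor of early B cell development.
Fcrla, chr1:170927584-170927833, minus strand: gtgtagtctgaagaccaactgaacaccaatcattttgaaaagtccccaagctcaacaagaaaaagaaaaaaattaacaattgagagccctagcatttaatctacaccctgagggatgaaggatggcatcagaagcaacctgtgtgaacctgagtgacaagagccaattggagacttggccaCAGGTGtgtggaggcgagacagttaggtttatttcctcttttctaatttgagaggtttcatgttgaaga
Cd79a, chr7:24897247-24897380, plus strand: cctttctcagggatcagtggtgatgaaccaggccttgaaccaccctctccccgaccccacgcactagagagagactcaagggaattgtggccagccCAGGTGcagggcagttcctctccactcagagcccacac
Pax5, chr4:44710695-44710944, minus strand: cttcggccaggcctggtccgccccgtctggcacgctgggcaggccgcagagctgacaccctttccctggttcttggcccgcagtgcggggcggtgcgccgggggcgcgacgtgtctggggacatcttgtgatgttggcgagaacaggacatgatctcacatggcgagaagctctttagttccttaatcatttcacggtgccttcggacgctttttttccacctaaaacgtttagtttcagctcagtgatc

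On either strand of the full windows, CAGGTG was in 3 of the 4 (Fcrla, Cd79a and Cd22), against 17.2% of 32851 mouse windows of the same length. GGAAGT, an ETS core of the kind bound by Spi1, was in 1 of the 4, in the part of the Cd79a window that is not shown, against 19.7% of all windows. The octamer ATGCAAAT of the Pou2f2 type was in 0 of the 4 (1.60% of all windows). The motifs do not overlap each other in these windows. A match describes these letters only and is not a measured binding site.

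The comparison of BSYQF with control lungs asks how treated asthmatic lungs differ from normal ones. Of the 7 genes, 0 passed edgeR's quasi-likelihood test (Benjamini-Hochberg over all 14739 genes, threshold 0.05), where 1.67% of all genes passed (1.63% higher, 0.0407% lower). The log2 fold changes were all above 0, from 0.59 to 1.28 with a median of 0.83, where the median of all genes was -0.00 and 49.7% of genes lay above 0. Without adjustment 5 of the 7 had a p under 0.05 (Ms4a1, Cd79a, Cd79b, Blk and Cd22), as had 15.8% of all genes. The genes vary together and were chosen with results of these libraries known, so that they are not 7 separate observations.

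Ms4a1 averaged 81.1 ± 23.7 CPM in BSYQF lungs and 37.3 ± 14.0 CPM in control lungs (SD, n = 3 each). This was a log2 fold change of 1.12 ± 0.30 (SE), with a 95% interval of 0.47 to 1.77 and an edgeR adjusted p of 0.0917. Ms4a1 was the only 1 of the 7 whose BSYQF and control libraries did not overlap, where 13% of all genes were higher without overlap. Cd22 had a log2 fold change of 1.28 ± 0.37 (edgeR adjusted p = 0.121) and Cd79a one of 1.12 ± 0.36 (edgeR adjusted p = 0.173), at 148 ± 42.0 CPM in BSYQF lungs and 68.3 ± 35.1 CPM in control lungs. The others were Blk at 0.83 ± 0.35, Cd79b at 0.81 ± 0.30, Pax5 at 0.79 ± 0.45 and Fcrla at 0.59 ± 0.35, with edgeR adjusted p-values of 0.282, 0.227, 0.430 and 0.442.

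The call of 3 genes depended on the test. DESeq2 on the same counts called Ms4a1, Cd79a and Cd22 (adjusted p = 0.0124, 0.0441 and 0.0160), where it called 5.61% of all genes, and limma voom called 0 of the 7 and 0.617% of all genes. The authors' deposited table of this comparison lists the same 3, with log2 fold changes of 1.11 for Ms4a1, 1.11 for Cd79a and 1.27 for Cd22 and adjusted p-values of 0.00514, 0.0218 and 0.00764. That table lists 896 genes and holds only genes whose p was under 0.05 and whose log2 fold change was beyond 1 either way; in edgeR's fit only these 3 of the 7 lay beyond 1. With each of the 9 libraries left out in turn, 0 of the 7 passed edgeR's test, and the log2 fold change of Ms4a1 lay between 0.95 and 1.47 and that of Cd22 between 0.96 and 1.70.

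The comparison of BSYQF with asthma lungs asks what treatment changes in the model, and it uses the same BSYQF libraries. Of the 7 genes 0 passed edgeR's test, as against 0.00678% of all genes, which is 1 gene. The log2 fold changes lay between 0.32 and 0.90 with a median of 0.47, where the median of all genes was -0.00 and 49.3% of genes lay above 0. Ms4a1 averaged 81.1 ± 23.7 CPM in BSYQF lungs and 43.4 ± 11.4 CPM in asthma lungs, a log2 fold change of 0.90 ± 0.29 with a 95% interval of 0.25 to 1.55 (edgeR adjusted p = 0.562). Cd22 followed at 0.85 ± 0.36 (edgeR adjusted p = 0.619), and these 2 genes had an unadjusted p under 0.05, as had 7.94% of all genes. The log2 fold changes of Cd79a, Blk, Fcrla, Cd79b and Pax5 were 0.56 ± 0.36, 0.47 ± 0.35, 0.37 ± 0.35, 0.36 ± 0.30 and 0.32 ± 0.45, and each 95% interval held 0. For none of the 7 were the libraries of these groups without overlap (4.99% of all genes were higher without overlap), and neither DESeq2 (0.835% of all genes) nor limma voom (0% of all genes) called any.

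The comparison of asthma with control lungs asks what the model changes. Again 0 of the 7 genes passed edgeR's test, where 12.7% of all genes did (8.23% higher, 4.45% lower), 0 of the 7 had an unadjusted p under 0.05 (34.1% of all genes), and DESeq2 and limma voom called 0 (22.5% and 9.29% of all genes). The log2 fold changes lay between 0.21 and 0.56 with a median of 0.43, where the median of all genes was 0.02 and 51.2% of genes lay above 0. Cd79a, the highest, averaged 101 ± 28.2 CPM in asthma lungs and 68.3 ± 35.1 CPM in control lungs (log2 fold change 0.56 ± 0.36, 95% interval -0.24 to 1.36, edgeR adjusted p = 0.294). Pax5, Cd79b and Cd22 stood at 0.47 ± 0.45, 0.44 ± 0.30 and 0.43 ± 0.37, and Blk, Ms4a1 and Fcrla at 0.36 ± 0.35, 0.22 ± 0.29 and 0.21 ± 0.35. The libraries of these groups overlapped for all 7 genes, where 22% of all genes were higher without overlap. Without asthma replicate 2 the log2 fold changes of Ms4a1, Pax5 and Fcrla turned to -0.030, -0.048 and -0.049, and without control replicate 1 that of Fcrla turned to -0.097.

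**Figure D2:**
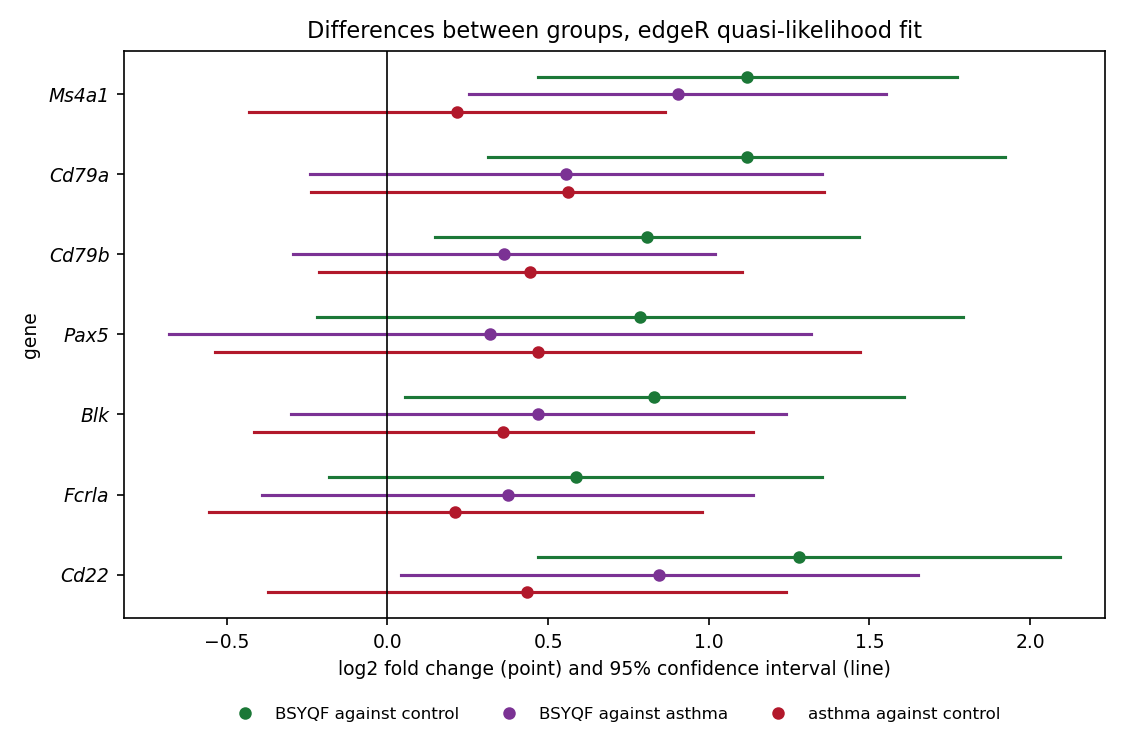
Log2 fold change (points) and 95% confidence interval (lines) of the 7 genes on the horizontal axis in BSYQF against control, BSYQF against asthma and asthma against control, from edgeR's quasi-likelihood fit. All points lie above 0. In BSYQF against control the intervals of Pax5 and Fcrla hold 0, and in asthma against control all 7 do.

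Other genes of the lineage came from lists that had been drawn up with earlier results of these libraries known. In the counts for these lists, rose, fell and changed mean only that a gene passed edgeR's test. Among 13 tested genes of the B cell receptor, its co-receptors and its signal chain, 1 rose in BSYQF against control lungs (Blnk), 0 changed in BSYQF against asthma lungs and 4 rose in asthma against control lungs (Syk, Btk, Blnk and Vav1). Over all tested genes, 1.63% rose in BSYQF against control lungs and 8.23% in asthma against control lungs, and each list's count below stands against these shares. The list's median log2 fold changes in these 3 comparisons were 0.81, 0.09 and 0.38. The antibody chain genes Ighm, Ighd and Igkc were not analysed here. Blnk, the adaptor that links the receptor's kinases to their targets, averaged 42.6 ± 16.5 CPM in BSYQF lungs, 40.5 ± 15.2 CPM in asthma lungs and 12.9 ± 1.90 CPM in control lungs. It rose by a log2 fold change of 1.72 ± 0.32 in BSYQF against control lungs (edgeR adjusted p = 0.0277) and by 1.64 ± 0.32 in asthma against control lungs (edgeR adjusted p = 0.0148). Leaving out 1 library ended the first call without asthma 1, BSYQF 1, control 1, control 2 or control 3 (edgeR adjusted p = 0.0543, 0.0833, 0.119, 0.0948 and 0.114), and limma voom did not call it (adjusted p = 0.0789). The second call ended without asthma 1, asthma 2, control 1, control 2 or control 3 (edgeR adjusted p = 0.0677, 0.0683, 0.0584, 0.0551 and 0.0517). Syk, Btk and Vav1 are also made by myeloid cells, and their calls in asthma against control lungs depended on single libraries. That of the kinase Syk ended without asthma 1, asthma 2, BSYQF 1, BSYQF 2, control 1, control 2 or control 3 (edgeR adjusted p = 0.138, 0.198, 0.0502, 0.0733, 0.155, 0.0505 and 0.127). It also ended with RLE size factors, in the fit of only the 2 groups and with the replicate block (edgeR adjusted p = 0.0537, 0.0612 and 0.0518). The call of the kinase Btk ended without asthma 1, asthma 2, control 1, control 2 or control 3 (edgeR adjusted p = 0.0726, 0.0788, 0.0638, 0.0652 and 0.0568). That of Vav1, a guanine nucleotide exchange factor, ended without asthma 1, asthma 2, control 1 or control 3 (edgeR adjusted p = 0.0731, 0.0738, 0.0615 and 0.0572). In BSYQF against control lungs Syk, Btk and Vav1 had log2 fold changes of 0.76 ± 0.20, 1.26 ± 0.28 and 1.11 ± 0.29 (edgeR adjusted p = 0.0860, 0.0523 and 0.0898). In asthma against control lungs they stood at 0.66 ± 0.19, 1.37 ± 0.28 and 1.46 ± 0.29. Each was higher without overlap in both comparisons, where 13% and 22% of all genes were. In BSYQF against control lungs DESeq2 called them all (adjusted p = 0.0157, 0.00168 and 0.0114), against 5.61% of all genes.

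Cr2, the complement receptor of B cells that is also found on follicular dendritic cells, stood at 36.2, 22.4 and 57.9 CPM in BSYQF lungs, 8.43, 23.6 and 12.1 CPM in asthma lungs and 11.9, 18.7 and 14.2 CPM in control lungs. Its BSYQF libraries lay above all control libraries and overlapped the asthma libraries. The log2 fold change was 1.38 ± 0.40 in BSYQF against control lungs (edgeR adjusted p = 0.121, DESeq2 adjusted p = 0.0174), 1.40 ± 0.40 in BSYQF against asthma lungs (edgeR adjusted p = 0.466) and -0.02 ± 0.40 in asthma against control lungs (edgeR adjusted p = 0.973). Tnfrsf13c averaged 33.9 ± 12.6 CPM in BSYQF lungs, 19.1 ± 5.58 CPM in asthma lungs and 13.4 ± 6.27 CPM in control lungs. Its log2 fold change in BSYQF against control lungs was 1.34 ± 0.38 (edgeR adjusted p = 0.112, DESeq2 adjusted p = 0.0165). Fcer2a, the low-affinity IgE receptor of B cells, averaged 43.8 ± 8.64 CPM in BSYQF lungs, 43.8 ± 14.0 CPM in asthma lungs and 25.1 ± 14.6 CPM in control lungs, and it passed in no comparison.

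Of 9 tested inhibitory receptors and phosphatases, 2 rose in BSYQF against control lungs (Fcgr2b and Fcrlb), 0 changed in BSYQF against asthma lungs and 3 rose in asthma against control lungs (Fcgr2b, Fcrlb and Pirb), while Cd22 itself passed in none. Fcgr2b, the inhibitory Fc receptor of B cells and myeloid cells, stood at 127, 66.8 and 61.4 CPM in BSYQF lungs, 136, 174 and 72.4 CPM in asthma lungs and 21.9, 18.8 and 18.6 CPM in control lungs. Every BSYQF and asthma library was above every control library. The log2 fold change was 2.11 ± 0.34 in BSYQF against control lungs (edgeR adjusted p = 0.0161) and 2.68 ± 0.35 in asthma against control lungs (edgeR adjusted p = 0.0042). The first call ended without control 1, control 2 or control 3 (edgeR adjusted p = 0.0586, 0.0863 and 0.0998), and the second held with each of the 9 libraries left out. The call of Fcrlb, an intracellular Fc receptor-like protein of B cells, in BSYQF against control lungs ended without asthma 1, asthma 2, BSYQF 1, BSYQF 2, control 1, control 2 or control 3 (edgeR adjusted p = 0.0843, 0.0606, 0.127, 0.067, 0.105, 0.151 and 0.114). It also ended in the fit of only the 2 groups and with the replicate block (edgeR adjusted p = 0.0565 and 0.0808) and with limma voom (adjusted p = 0.151). Fcrlb was a gene of low level, with 26 to 72 counts in BSYQF, 64 to 96 in asthma and only 0 to 7 in control libraries. In asthma against control lungs Fcrlb lost its call without control 2 (edgeR adjusted p = 0.0505). Pirb, an inhibitory receptor of B cells and myeloid cells, lost its call without asthma 1, asthma 2, BSYQF 2, control 1, control 2 or control 3 (edgeR adjusted p = 0.154, 0.156, 0.0657, 0.0953, 0.092 and 0.109), in the fit of only the 2 groups (edgeR adjusted p = 0.0563) and with limma voom (adjusted p = 0.0539). Its log2 fold change was 0.81 ± 0.23 both in BSYQF and in asthma against control lungs (edgeR adjusted p = 0.108 and 0.0440). DESeq2 called Pirb in BSYQF against control lungs (adjusted p = 0.0321).

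Of 11 tested B cell transcription factors, 1 rose in BSYQF against control lungs (Pou2af1), 0 changed in BSYQF against asthma lungs and 2 rose in asthma against control lungs (Pou2af1 and Spi1). Pou2af1, the octamer co-activator needed for germinal centres and also present in plasma cells, stood at 154, 94.0 and 142 CPM in BSYQF lungs, 101.8, 115 and 65.1 CPM in asthma lungs and 29.1, 46.1 and 28.0 CPM in control lungs. Both asthmatic groups lay above control without overlap, unlike Pax5. The log2 fold change was 1.92 ± 0.27 in BSYQF against control lungs (edgeR adjusted p = 0.0101) and 1.45 ± 0.27 in asthma against control lungs (edgeR adjusted p = 0.0124). The first call ended without control 3 (edgeR adjusted p = 0.0681) and the second without asthma 1, asthma 2, control 1 or control 3 (edgeR adjusted p = 0.0652, 0.0598, 0.0531 and 0.0522). The call of Spi1, a factor that myeloid cells also make, ended without asthma 1, asthma 2, control 1 or control 3 (edgeR adjusted p = 0.0967, 0.103, 0.0807 and 0.0728). Spi1 had a log2 fold change of 0.91 ± 0.28 in BSYQF against control lungs (edgeR adjusted p = 0.143, DESeq2 adjusted p = 0.0450) and 1.23 ± 0.28 in asthma against control lungs. Ebf1, a factor of early B cells that fat and stromal cells also make, stood at 20.2, 21.4 and 37.7 CPM in BSYQF lungs, 13.1, 23.4 and 16.7 CPM in asthma lungs and 19.2, 38.1 and 25.8 CPM in control lungs. Its libraries overlapped in all 3 comparisons, and its log2 fold change was -0.07 ± 0.32 in BSYQF against control lungs, 0.58 ± 0.32 in BSYQF against asthma lungs and -0.64 ± 0.32 in asthma against control lungs (edgeR adjusted p = 0.934, 0.634 and 0.175).

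Of 14 other tested surface and mature B cell genes, 0 changed in BSYQF against control lungs, 0 in BSYQF against asthma lungs and 2 rose in asthma against control lungs (Cd52 and Scimp). Of the 14, edgeR gave 7, 2 and 4 an unadjusted p under 0.05 in these comparisons, against 15.8%, 7.94% and 34.1% of all tested genes. Cd52 lost its call without asthma 1, asthma 2, BSYQF 2, control 1, control 2 or control 3 (edgeR adjusted p = 0.134, 0.16, 0.0516, 0.127, 0.0949 and 0.0849), with the replicate block (edgeR adjusted p = 0.0571) and with limma voom (adjusted p = 0.0521). Scimp lost its call without the same 6 libraries (edgeR adjusted p = 0.0885, 0.135, 0.0507, 0.0944, 0.0689 and 0.0718). In BSYQF against control lungs Cd52 and Scimp had log2 fold changes of 1.24 ± 0.32 and 0.88 ± 0.30 (edgeR adjusted p = 0.0817 and 0.187). In asthma against control lungs they stood at 1.16 ± 0.31 and 1.20 ± 0.30, and neither overlapped in either comparison. DESeq2 and the fit of only the 2 groups called Cd52 in BSYQF against control lungs (adjusted p = 0.00574 and 0.0370), and no alternative called Scimp there. Of 12 tested genes of B cell survival and homing, 1, 0 and 1 rose (Tnfrsf13b, a receptor for BAFF and APRIL). In BSYQF against control lungs its call ended without asthma 1, BSYQF 1, BSYQF 3, control 1, control 2 or control 3 (edgeR adjusted p = 0.0667, 0.0993, 0.0694, 0.137, 0.124 and 0.114), with the replicate block (edgeR adjusted p = 0.0564) and with limma voom (adjusted p = 0.0772). In asthma against control lungs it ended without asthma 1, asthma 2, control 1, control 2 or control 3 (edgeR adjusted p = 0.0851, 0.0907, 0.0717, 0.0771 and 0.0511). Of the 7 listed genes of B cell precursors 2 were tested. Rag1 and Rag2, the recombinase of developing lymphocytes, had 0 counts in every BSYQF and asthma library and at most 2 and 1 counts in a control library. Of the 2 tested, Flt3, which dendritic cells also make, had a log2 fold change of 0.80 ± 0.25 in BSYQF against control lungs (edgeR adjusted p = 0.158). It rose in asthma against control lungs, by 0.87 ± 0.25. Its call held only without asthma 3 or BSYQF 1 among the 9 libraries left out in turn (edgeR adjusted p of 0.0506 to 0.187 without the others), and it ended with RLE size factors, with no filter, in the fit of only the 2 groups and with the replicate block (edgeR adjusted p = 0.0501, 0.0528, 0.0565 and 0.0708) and with limma voom (adjusted p = 0.075).

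The germinal centre and plasma cell lists, of B cells that have been activated, had more calls than the 7 lineage genes. Of 8 tested germinal centre genes, 4 rose in BSYQF against control lungs (among them Mef2b, Gcsam and Basp1), 0 changed in BSYQF against asthma lungs and the same 4 rose in asthma against control lungs. Gcsam, a signalling protein of germinal centre B cells, stood at 10.9, 7.67 and 5.93 CPM in BSYQF lungs, 4.13, 4.71 and 4.17 CPM in asthma lungs and 1.84, 1.23 and 1.54 CPM in control lungs. All BSYQF libraries lay above all asthma libraries, and these above all control libraries. The log2 fold change of Gcsam was 2.40 ± 0.32 in BSYQF against control lungs (edgeR adjusted p = 0.0101), 0.91 ± 0.30 in BSYQF against asthma lungs (edgeR adjusted p = 0.571) and 1.49 ± 0.32 in asthma against control lungs (edgeR adjusted p = 0.0204). The first call ended without control 2 or control 3 (edgeR adjusted p = 0.0563 and 0.0672), and the last without asthma 1, asthma 2, control 2 or control 3 (edgeR adjusted p = 0.0689, 0.0773, 0.0920 and 0.0642). The call of Mef2b, a transcription factor of germinal centre B cells, ended in BSYQF against control lungs without asthma 1, BSYQF 1, control 1, control 2 or control 3 (edgeR adjusted p = 0.0502, 0.072, 0.0912, 0.0931 and 0.125). In asthma against control lungs it ended without asthma 1, asthma 2, control 1, control 2 or control 3 (edgeR adjusted p = 0.104, 0.123, 0.0825, 0.0923 and 0.0841), and limma voom made neither call (adjusted p = 0.121 and 0.0987). The call of Basp1 in BSYQF against control lungs ended without control 2 or control 3 (edgeR adjusted p = 0.0804 and 0.0681), and its call in asthma against control lungs held with each of the 9 libraries left out. Unlike Gcsam, Basp1 averaged more in asthma lungs (63.1 ± 19.0 CPM) than in BSYQF lungs (52.5 ± 13.3 CPM), with 16.5 ± 2.12 CPM in control lungs. In BSYQF and in asthma against control lungs, 5 of the 8 genes lay above 0, where 49.7% and 51.2% of all genes did.

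Of 9 tested plasma cell genes, 6 rose in BSYQF against control lungs, 0 changed in BSYQF against asthma lungs and 7 rose in asthma against control lungs, with median log2 fold changes of 2.24, -0.02 and 1.98. Jchain, the joining chain of polymeric antibodies, averaged 3533 ± 133 CPM in BSYQF lungs, 2861 ± 488 CPM in asthma lungs and 115 ± 97.9 CPM in control lungs. It rose by a log2 fold change of 4.94 ± 0.54 in BSYQF against control lungs (edgeR adjusted p = 0.00506), and this call held with each of the 9 libraries left out. Mzb1, a chaperone of antibody assembly that marginal zone B cells also make, averaged 177 ± 65.3 CPM in BSYQF lungs, 218 ± 127 CPM in asthma lungs and 14.6 ± 4.13 CPM in control lungs. The log2 fold change of Mzb1 was 3.59 ± 0.48 in BSYQF against control lungs (edgeR adjusted p = 0.0101), a call that ended without control 2 or control 3 (edgeR adjusted p = 0.0756 and 0.0714). Each library had 35.1 to 67.4 times as many Jchain as Ms4a1 counts in BSYQF lungs, 61.0 to 76.0 times in asthma lungs and 0.862 to 8.06 times in control lungs. The libraries of both asthmatic groups lay above all control libraries in this ratio, whereas the 7 lineage genes overlapped between them apart from Ms4a1 in BSYQF against control.

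**Figure D3:**
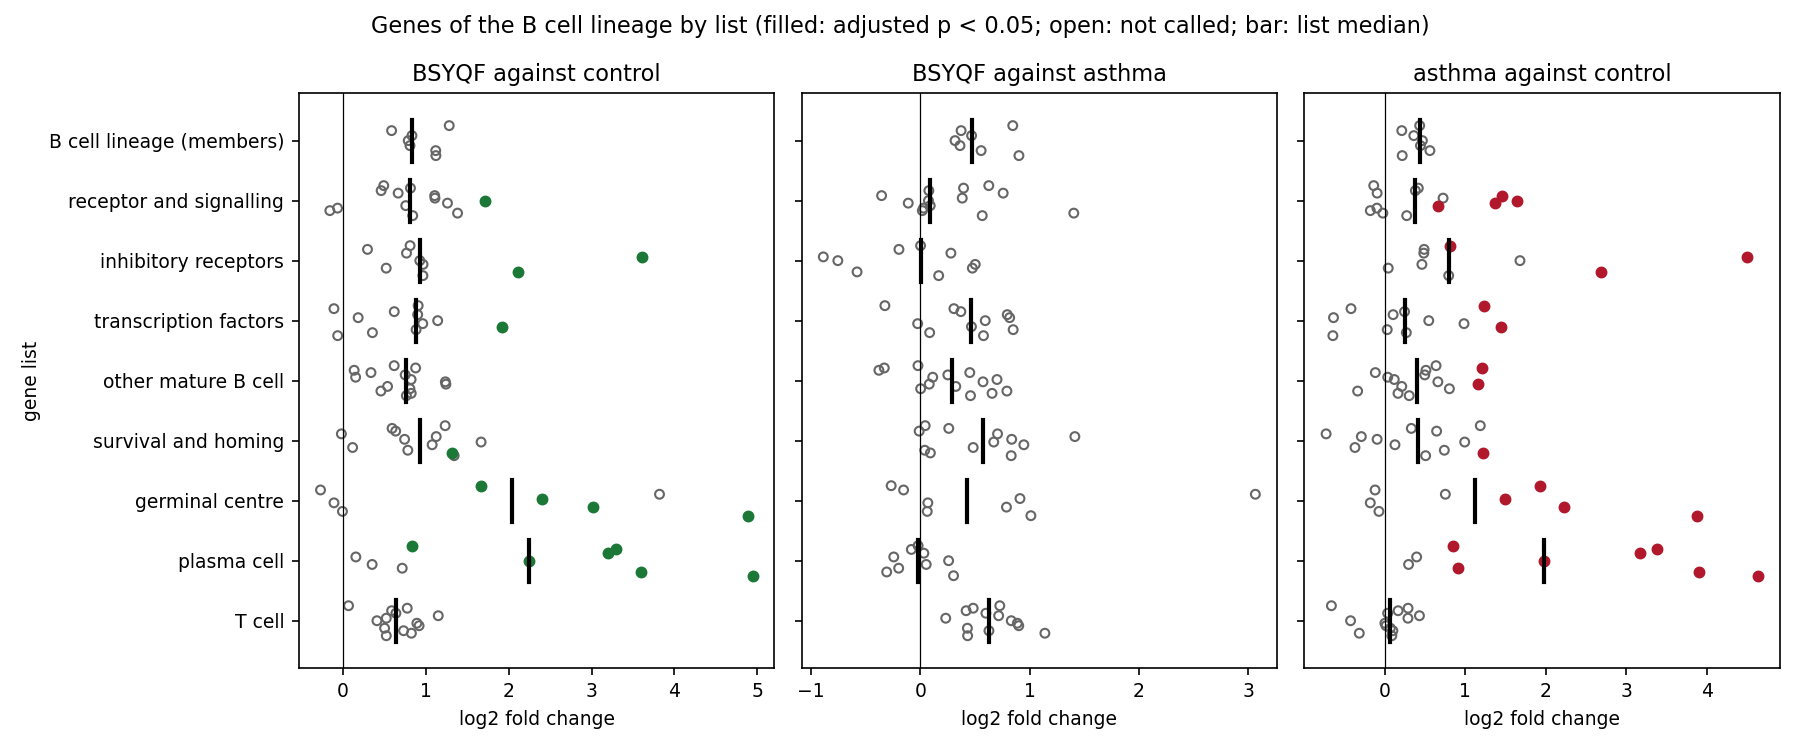
Log2 fold change (horizontal axes) of each tested gene of the 7 lineage genes, 7 other B lineage lists and a T cell list in the 3 comparisons; filled points passed edgeR's test, open points did not, and black bars are list medians. Filled points against control reach a log2 fold change of 4.94 for Jchain in the plasma cell list, while the 7 lineage genes have no filled point.

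**Figure D4:**
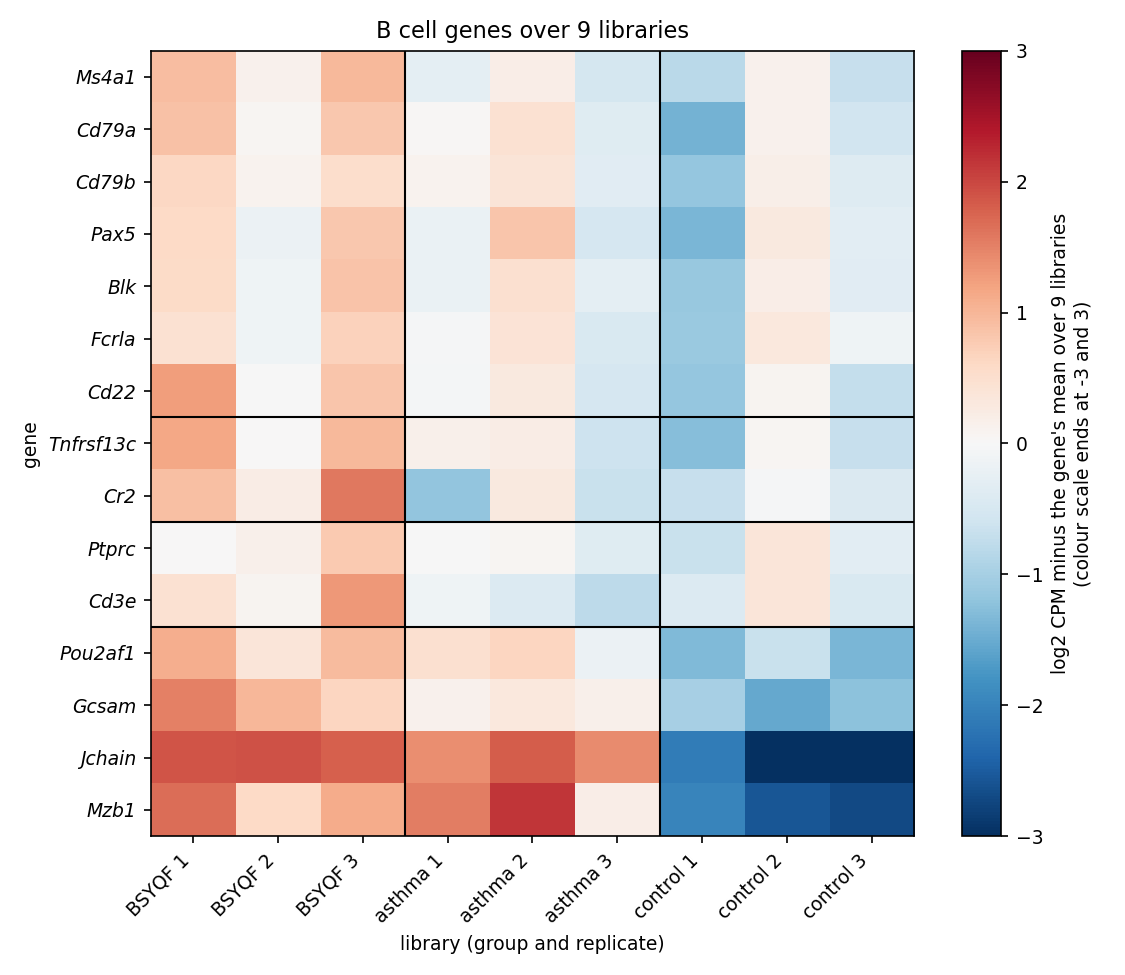
Log2 CPM of each gene (rows) minus its mean over the 9 libraries (columns), with the 7 lineage genes on top, then Tnfrsf13c and Cr2, then Ptprc and Cd3e, and at the bottom Pou2af1, Gcsam, Jchain and Mzb1. Red is above and blue below the gene's mean. The 7 rows share BSYQF 1 and BSYQF 3 as high and control 1 as low libraries, and Jchain separates both asthmatic groups from control.

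Markers of other cells moved with the B cell genes in some libraries. Ptprc, the pan-leukocyte surface protein CD45, stood at 221, 245 and 377 CPM in BSYQF lungs, 218, 228 and 170 CPM in asthma lungs and 139, 284 and 178 CPM in control lungs. It was lowest in control replicate 1, the library lowest in all 7 B cell genes, and highest in BSYQF replicate 3. Within BSYQF lungs the orders differed. Ptprc was lowest in replicate 1, where the sum of the 7 B cell genes was highest (652 CPM), while all 7 were lowest in replicate 2. Of 8 tested pan-leukocyte genes, 0 passed edgeR's test in BSYQF against control lungs, 0 in BSYQF against asthma lungs and 4 rose in asthma against control lungs. Their median log2 fold changes were 0.84, 0.18 and 0.62. In BSYQF against control lungs 7 had an unadjusted p under 0.05 (15.8% of all genes) and 6 were higher without overlap (13%). In asthma against control lungs these counts were 5 (34.1%) and 4 (22%). Summed over the list, they lay at 1796 to 2287 CPM in BSYQF lungs, 1443 to 2266 CPM in asthma lungs and 943 to 1529 CPM in control lungs. Of 8 tested macrophage genes, 4 rose in BSYQF against control lungs, 0 changed in BSYQF against asthma lungs and 6 rose in asthma against control lungs, and their summed level was 556 to 864 CPM in BSYQF lungs, 788 to 893 CPM in asthma lungs and 271 to 371 CPM in control lungs. Of 7 tested NK cell genes 0 passed in any comparison. Their median log2 fold changes were -0.73 in BSYQF against control, -0.25 in BSYQF against asthma and -0.42 in asthma against control lungs. In BSYQF and in asthma against control lungs, 0 of these 7 lay above 0, where 49.7% and 51.2% of all genes did. The part of these cells in the values of the B cell genes, and of Fcgr2b, Syk, Btk, Vav1, Blnk, Cd52 and Scimp, was not tested.

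Of 13 tested T cell genes 0 passed in any comparison, and 13 of 13 had a log2 fold change above 0 in BSYQF against asthma lungs (median 0.63), 9 of them without overlap of the libraries, where 4.99% of all genes were higher without overlap. The summed level of the 14 listed T cell genes was 266 to 382 CPM in BSYQF lungs, 183 to 255 CPM in asthma lungs and 159 to 257 CPM in control lungs. Cd3e, a chain of the T cell receptor complex, stood at 16.2, 12.7 and 29.4 CPM in BSYQF lungs, 10.8, 8.87 and 6.81 CPM in asthma lungs and 8.92, 15.4 and 8.67 CPM in control lungs (BSYQF against asthma, log2 fold change 1.14 ± 0.34, edgeR adjusted p = 0.513). Of 8 genes of plasmacytoid dendritic cells, which share several genes with B cells, 0, 0 and 1 rose in BSYQF against control, BSYQF against asthma and asthma against control lungs. In these comparisons 6, 4 and 3 of the 8 lay above 0, where 49.7%, 49.3% and 51.2% of all genes did, with medians of 0.56, 0.10 and -0.08. Their summed level was 339 to 396 CPM in BSYQF lungs, 360 to 454 CPM in asthma lungs and 323 to 344 CPM in control lungs. Siglech, their defining surface protein, lay at 1.98 to 2.90 CPM in BSYQF lungs, 2.11 to 6.25 CPM in asthma lungs and 3.30 to 5.32 CPM in control lungs. In BSYQF against control lungs it had the lowest log2 fold change of the list (-0.83), unlike most of the 8.

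Lymph node and fat genes also differed between libraries. Glycam1, a ligand of L-selectin made by lymph node venules, stood at 29.6, 66.3 and 208 CPM in BSYQF lungs, 0, 0.672 and 2.87 CPM in asthma lungs and 10.4, 0.351 and 0.745 CPM in control lungs. Its BSYQF libraries lay above all others, with BSYQF replicate 3 the highest, yet the differences did not pass (BSYQF against control, log2 fold change 4.71 ± 1.30, edgeR adjusted p = 0.125; BSYQF against asthma, 6.32 ± 1.45, edgeR adjusted p = 0.346, DESeq2 adjusted p = 0.0233). Cxcl13, the chemokine that draws B cells into follicles, stood at 66.2, 47.1 and 78.6 CPM in BSYQF lungs, 49.8, 49.6 and 21.2 CPM in asthma lungs and 47.2, 3.51 and 9.74 CPM in control lungs. It was called only without control replicate 1, in BSYQF against control at a log2 fold change of 3.26 (edgeR adjusted p = 0.0330) and in asthma against control at 2.59 (edgeR adjusted p = 0.0357).

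The 6 lymph node and lymphoid stroma genes of the table summed to 363 to 703 CPM in BSYQF lungs, 255 to 293 CPM in asthma lungs and 280 to 326 CPM in control lungs. Most of this sum came from listed genes other than Glycam1, Ccl19, Madcam1 and Ccl21a, so it is no measure of these markers. In BSYQF replicate 1 Glycam1 held 29.6 of 703 CPM. Ccl19 had 0 counts in every library, Madcam1 lay at 0.242 to 4.48 CPM in BSYQF lungs, 0.0897 to 0.538 CPM in asthma lungs and 0 in control lungs, and Ccl21a stayed at or under 0.134 CPM. The 7 fat genes summed to 184 to 555 CPM in BSYQF lungs, 86.8 to 144 CPM in asthma lungs and 175 to 644 CPM in control lungs. The 10 heart muscle genes summed to 473 to 1430 CPM in BSYQF lungs, 132 to 241 CPM in asthma lungs and 459 to 1048 CPM in control lungs. In asthma against control lungs 5 of 7 fat and 9 of 10 heart muscle genes fell, where 4.45% of all tested genes did. BSYQF replicate 2, the lowest BSYQF library for all 7 B cell genes, also had the lowest sum of the lymph node and stroma list in its group, at 363 CPM. Glycam1 alone and the fat and heart muscle sums were instead lowest in BSYQF replicate 1, at 29.6, 184 and 473 CPM. The part of these tissues in the B cell values was not tested.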

How the data were processed

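Per the labels' protocols, lung RNA was isolated with Trizol and 3 µg per library went into NEBNext Ultra libraries. Tools named in the submitters' processing notes are STAR, HTSeq, cutadapt, FastQC and DESeq2, with the build mm10; no source used here gives versions, annotation or strand setting. The deposited counts are whole numbers per gene and library without normalization. Per the file headers, the authors' other tables hold log2 fold changes and p-values of 3 comparisons; 36 further value columns in them were not used.

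Counts were filtered (filterByExpr), TMM-scaled and analysed in edgeR 4.0.16 (R 4.3.3) with glmQLFit (robust, default dispersion method) and glmQLFTest, using 1 model of 3 groups and a threshold of 0.05 on Benjamini-Hochberg adjusted p-values. SE is the log2 fold change over the square root of F, and the biological coefficient of variation was 0.244. Correlations used log2 CPM with a prior count of 2. Tested on simulated counts of asthma against control, with log2 fold changes of 2 either way, the fit recovered 164 of 200 changed genes with 8 false calls. Smaller changes, such as those of the lineage genes, were not simulated. Alternatives were DESeq2 1.42.0, limma 3.58.1 (voom), other size factors, no filter, another dispersion method, only 2 groups, a replicate block and each library left out.

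The members, lists and rules were chosen with earlier results of these data known. Named genes were the members, fixed B cell genes, up to 4 called members of each list (otherwise 2 with the smallest p) and the 10 genes most like the members; the text picks from these, a few that the rule names are not reported here, and other genes named were chosen after their values were seen. Exon lengths and coordinates are GENCODE vM21 on GRCm38, 1-based; promoter windows are RefSeq.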

Additional observations from a re-analysis of the deposited data

How the results depend on the processing

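Of 336 values of the 7 B cell genes under the alternatives, 329 kept their direction and their side of the threshold, 3 passed it (DESeq2, below) and 4 changed sign; of 1728 values of other named genes, 1546 kept both, 124 fell short of the threshold, 22 passed it and 36 changed sign. Why was not tested. The number of genes called, 246 in BSYQF against control, 1 in BSYQF against asthma and 1869 in asthma against control, was 826, 123 and 3315 with DESeq2, which called 3, 0 and 0 of the 7 B cell genes. Limma voom called 91, 0 and 1369, and the fit of only the 2 groups compared called 389, 0 and 1986. With 1 library left out the counts ranged from 9 (without control 3) to 563 (without asthma 3) in BSYQF against control, from 0 to 114 (without asthma 3) in BSYQF against asthma, and from 171 (without asthma 1) to 4262 (without asthma 3) in asthma against control, with 0 of the 7 called each time. The labels do not say that equal replicate numbers pair samples, so the numbers were not taken as pairs. Deviations from the group means had correlations of -0.259 to 0.339 between same-numbered libraries of different groups. Between differently numbered ones they were -0.428 to 0.368, and these values cannot decide whether samples were paired. With the replicate block 237, 15 and 1469 genes and 0 of the 7 were called. Where leaving out 1 library turned the direction, the log2 fold change ranged, in asthma against control, from -0.030 to 0.57 for Ms4a1, -0.048 to 0.91 for Pax5, -0.097 to 0.55 for Fcrla, -0.55 to 0.23 for Cr2, -0.17 to 0.37 for Ptprc, -0.51 to 0.0033 for Cd3e, -3.62 to 1.18 for Glycam1, -0.042 to 0.97 for Shank1 and -0.12 to 0.49 for H2-Ob. In BSYQF against asthma it ranged from -0.23 to 0.22 for Fcer2a, -0.26 to 0.35 for Blnk, -0.40 to 0.17 for Btk, -0.031 to 0.25 for Syk, -0.17 to 0.14 for Pirb, -0.20 to 0.34 for Cd52, -0.25 to 0.11 for Flt3, -0.14 to 0.34 for Tnfrsf13b, -0.68 to 0.18 for Mzb1 and -0.83 to 0.13 for Siglech, and in BSYQF against control from -0.41 to 0.23 for Ebf1. With 3 libraries a group, the 95% intervals of the 7 genes in asthma against control all hold 0.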

Other observations

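Values of 2 antibody light chain genes are given here; both were chosen after their values were seen. Iglc2, a constant region of the lambda light chain with close copies, rose: it averaged 141 ± 35.6 CPM in BSYQF lungs, 96.3 ± 31.8 CPM in asthma lungs and 31.0 ± 3.07 CPM in control lungs. Its log2 fold change was 2.18 ± 0.27 in BSYQF against control lungs (edgeR adjusted p = 0.00828), 0.55 ± 0.26 in BSYQF against asthma lungs (edgeR adjusted p = 0.622) and 1.63 ± 0.26 in asthma against control lungs (edgeR adjusted p = 0.00951). Igkv4-62, 1 variable segment of the kappa light chain, had 2069 counts in BSYQF replicate 3 and 485 in asthma replicate 2, against 0 to 9 in each of the other 7 libraries. The summed level of the 9 plasma cell genes was 5044, 4907 and 4732 CPM in BSYQF replicates 1, 2 and 3 and 4215, 5183 and 3722 CPM in asthma replicates 1, 2 and 3, so that the high Igkv4-62 library was the lowest of its group in this sum in BSYQF and the highest in asthma.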
